A study of Mus musculus with 3 samples.

Results

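Capillary endothelial cells, the cells that line the smallest vessels of the heart muscle, were picked from single-cell RNA libraries of mouse left ventricle by counts of unique molecular identifiers (UMIs, each standing for 1 captured RNA molecule). Members were barcodes holding 500 UMIs or more from 300 genes or more, of which no more than 50% were mitochondrial. They also needed at least 3 UMIs of the endothelial genes Pecam1, Cdh5 and Egfl7 together and at least 3 of the capillary genes Gpihbp1, Car4 and C1qtnf9 together. No UMI was allowed of the arterial genes Sema3g, Gja5 and Stmn2, the endocardial genes Npr3 and Cytl1, the lymphatic genes Mmrn1 and Prox1 or the pericyte genes Kcnj8 and Abcc9. At most 5 UMIs of the fibroblast collagens Col1a1 and Col3a1 and at most 1 of the leukocyte gene Ptprc were tolerated. The rule found 2204 members among 61034 barcodes past the UMI, gene and mitochondrial limits and 96654 barcodes in all.

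The libraries are 1 per group, each pooled from 4 samples of C56Bl6 mice. HFpEF-FoxO1-sh came from mice fed a High-Fat + L-NAME diet, which loads the animals with fat and blocks nitric oxide synthases, for 6 weeks with an adeno-associated virus (AAV) carrying a short hairpin against FoxO1 for 4 weeks. HFpEF-scr had the same diet and times with an AAV carrying a scrambled hairpin. HFpEF stands for a heart failure in which the ejection fraction is preserved, which this diet serves to model. Control had a standard control diet for 10 weeks, and its label names no virus, so diet and virus cannot be told apart between HFpEF-scr and Control. The libraries held 27453, 36179 and 33022 barcodes with 144561934, 154385813 and 146230530 UMIs in HFpEF-FoxO1-sh, HFpEF-scr and Control. The labels give neither the age, the sex and the hour of collection of the mice nor the promoter and target cells of the virus. With a single library per group there was no replicate and no test: all values below compare libraries. Intervals are exact 95% intervals that cover counting error only, and they treat UMIs of the same cell as independent.

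Capillary endothelium of the heart carries fatty acids from blood to the muscle. GPIHBP1 holds lipoprotein lipase on the luminal surface of these cells, CD36 takes up the freed fatty acids, and FABP4 binds them inside the cell. The same cells relax neighbouring muscle through nitric oxide, and FoxO transcription factors hold back their growth and metabolism when insulin and growth factor signalling is low.

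The data bore out the capillary and endothelial label by markers that the rule did not use. Fabp4 had a UMI in 100% of members of each library, at 40445, 41328 and 32992 CPM (UMIs per 1000000 nuclear-gene UMIs) in the libraries labelled HFpEF-FoxO1-sh, HFpEF-scr and Control. It was the most abundant nuclear gene by UMIs. Aplnr, the apelin receptor, lay at 224, 261 and 253 CPM in that order of libraries. Kdr, the main receptor for the growth factor VEGF, was at 1715, 1798 and 1800 CPM, and the endothelial receptor Tie1 at 450, 407 and 431 CPM. Of the genes that chose the members, Gpihbp1 was at 2326, 2319 and 2351 CPM, the carbonic anhydrase Car4 at 349, 288 and 312 CPM, and the secreted protein gene C1qtnf9 at 551, 483 and 593 CPM. These last 3 are a description, since they set the membership, and they differed by less than 1.5-fold between libraries.

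Endothelial cells gated by mirrored rules (at least 2 UMIs of the arterial, endocardial or lymphatic genes) gave the setting for these levels. Aplnr was at 87.2, 103 and 82.8 CPM in arterial cells and at most 1.93 CPM in endocardial cells. Fabp4 was at 27893, 28560 and 22958 CPM in arterial cells, within 1.5-fold of its capillary level in each library. Outside the genes of the rule, 172 of 8572 measured genes were at least 1.5-fold higher in capillary than in arterial cells, and 443 were lower. These counts take each library in which a ratio could be formed. Leading genes, chosen here by their weakest ratio over the libraries after the values were seen, were Apln (the apelin ligand; 49.1, 76.7 and 72.2 CPM in capillary cells against 7.18, 10.2 and 7.53 CPM in arterial cells), the stem cell factor receptor gene Kit (47.2, 60.3 and 56.1 against 8.84, 8.72 and 8.16 CPM) and Adm, which codes for the vasodilator adrenomedullin (73.2, 68.9 and 83.5 against 13.8, 12.9 and 11.9 CPM). The water channel Aqp1 was at 1645, 1228 and 1985 CPM in capillary cells and 393, 342 and 445 CPM in arterial cells. Fbln5, an elastic-fibre gene of larger vessels, stood lower at 12.3, 11.6 and 7.64 CPM in capillary cells against 359, 457 and 329 CPM in arterial cells.

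Against endocardial cells, 1015 of 8100 genes were higher and 1000 lower, counted in the same way. Timp4, an inhibitor of matrix proteases, was at 763, 550 and 776 CPM in capillary cells and 7.22, 10.4 and 13.5 CPM in endocardial cells, and the transcription factor gene Tcf15 at 763, 658 and 819 against 9.28, 9.43 and 20.3 CPM. Capillary and arterial gates are neighbours rather than separate sets: of arterial-gate cells, 70%, 65.4% and 70.1% also had at least 3 UMIs of the capillary genes. Median mitochondrial shares were 28.6%, 30.5% and 34.1% in capillary, 21.2%, 23.7% and 28.1% in arterial and 10.7%, 15.8% and 16% in endocardial cells. Median nuclear UMIs were 2872, 3052 and 3365 in capillary and 4809, 4434 and 4410 in arterial cells. The part of both in these gene counts was not tested.

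**Figure D1:**
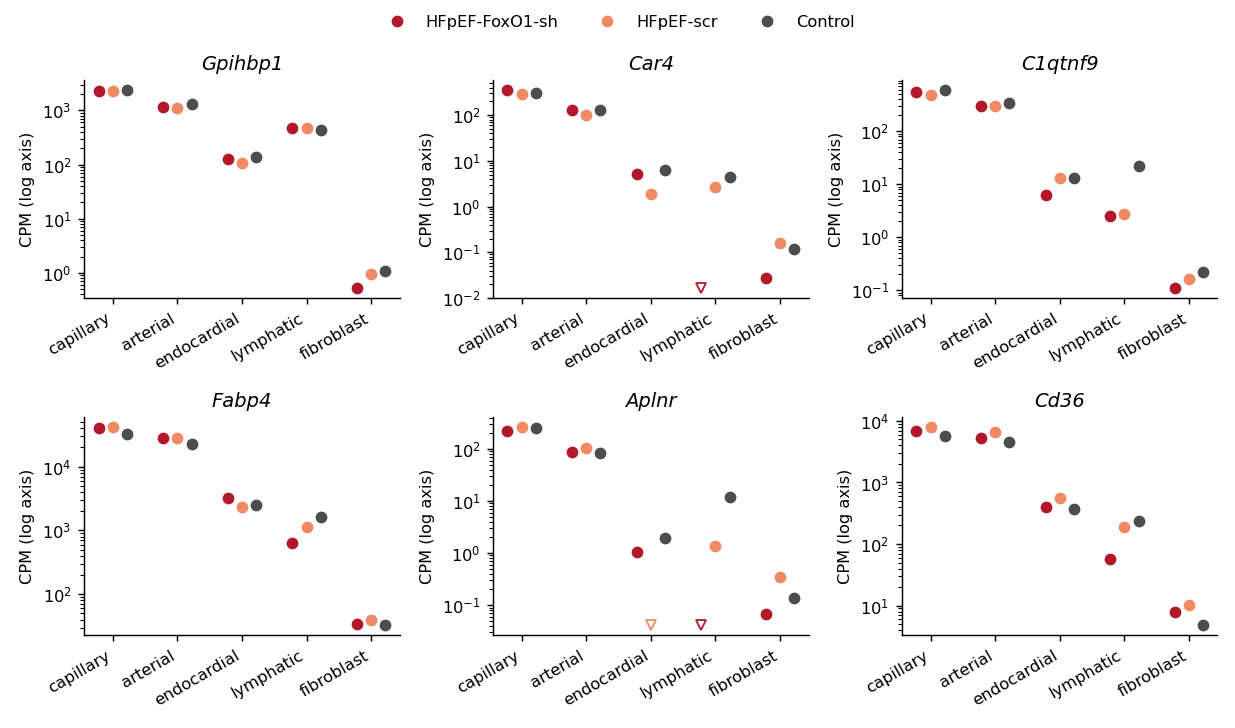
CPM (log axis) of 6 genes in 5 gated cell populations; each point is the summed level of 1 library, in the order HFpEF-FoxO1-sh, HFpEF-scr and Control, and an open triangle at the foot of a panel marks a library with 0 UMIs. Fabp4 and Aplnr, which the rule did not use, are highest in the capillary gate, Aplnr at 224 to 261 CPM, and arterial cells lie nearest to it.

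Members numbered 543, 796 and 865 in HFpEF-FoxO1-sh, HFpEF-scr and Control. They made up 2.66% (2.45 to 2.90), 3.75% (3.50 to 4.01) and 4.46% (4.17 to 4.76) of barcodes past the limits. Among gated endothelial cells the member share was 44.1% (41.3 to 46.9), 40.7% (38.5 to 42.9) and 40.5% (38.4 to 42.6), so the order seen among all barcodes was not kept within the endothelium. With a mitochondrial limit of 20% the shares were 0.569%, 0.812% and 0.649%, which put Control below HFpEF-scr. Dissociation, straining and debris removal, named in the labels' protocols, can set such shares, and their part here was not tested.

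The mitochondrial share moved with the library. Its median over members was 28.6%, 30.5% and 34.1%, against 10%, 14.8% and 15.5% over all barcodes past the limits. Only 99 (18.2%), 121 (15.2%) and 84 (9.71%) members lay at or under 20%. A further 16, 56 and 118 barcodes met the rule except for a mitochondrial share over 50%. Members had a median of 4225, 4614 and 5121 UMIs, of which 2872, 3052 and 3365 were nuclear, and 1453, 1505 and 1619 genes. At the edge of the capillary sum, 39, 40 and 29 members had exactly 3 UMIs, while 22, 32 and 32 barcodes just outside had 2. A single arterial UMI kept out another 134, 195 and 179 barcodes. No member barcode was shared between libraries, although 238 to 335 barcodes of any kind were shared by each pair of libraries.

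**Figure D2:**
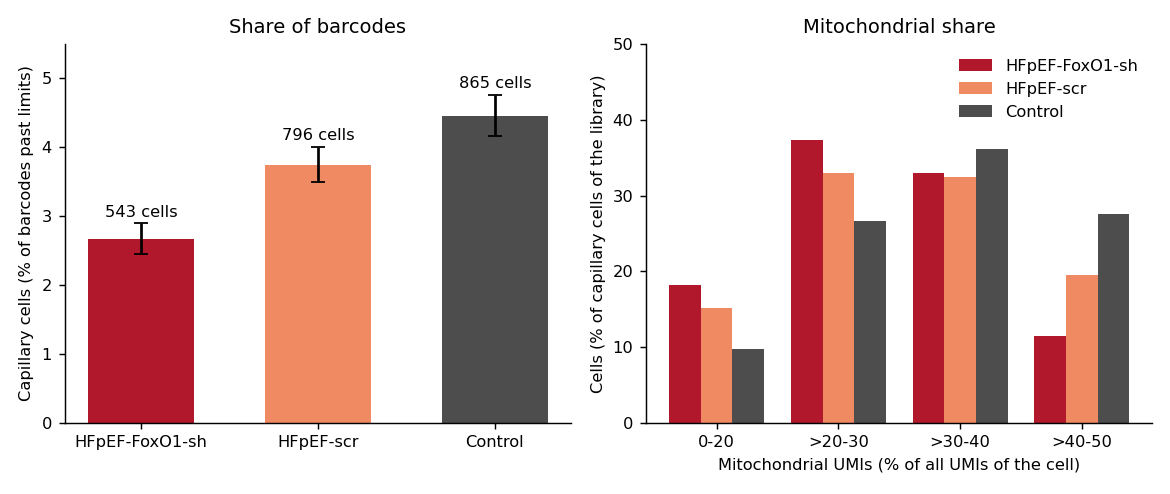
Left, capillary cells as a percent of barcodes past the limits (bars, with exact 95% intervals for counting error); right, the percent of each library's capillary cells by mitochondrial share. Control has the highest share of barcodes, 4.46%, and the fewest cells at or under 20% mitochondrial UMIs, 9.71%.

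RNA of other cell types was present at low or uneven levels. Haemoglobin RNA took 3.05%, 2.38% and 2.05% of nuclear UMIs. Over 1% was found in 24, 44 and 31 members, while the median member held 0%, 0.0148% and 0%. All 4 erythroid markers had UMIs in each library, and their sum was 27861, 21894 and 18766 CPM. The 6 pericyte markers summed to 219, 178 and 254 CPM, with Kcnj8 and Abcc9 at 0 by the rule. The 4 smooth muscle markers summed to 484, 108 and 206 CPM (Cnn1 at 0 in HFpEF-scr), the 6 fibroblast markers to 450, 142 and 317 CPM and the 6 macrophage markers to 266, 259 and 341 CPM. Endocardial markers summed to between 59.5 and 65.4 CPM with Npr3, Cytl1 and Hapln1 at 0, and lymphatic markers to between 59.5 and 69.3 CPM. Arterial markers summed to between 42.9 and 50.5 CPM with the 3 arterial genes of the rule at 0, and venous markers to between 75.8 and 86 CPM. Platelet markers summed to 67.3, 88.5 and 98.5 CPM, cardiomyocyte markers to 253, 291 and 295 CPM, lymphocyte markers to 8.85, 12.2 and 9.22 CPM and neutrophil markers to 0.983, 4.16 and 80.6 CPM. A doublet caller marked 10, 14 and 16 members, which were kept. The part of these counts in the comparisons was not tested.

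Some of these counts were spread over many members and others came from few cells. Cardiomyocyte markers had a UMI in 46.0%, 50.1% and 53.2% of members and fibroblast markers in 36.8%, 33.9% and 36.2%. The 10 members with the most UMIs of Acta2, a contractile actin of smooth muscle and pericytes, held 97.8%, 95% and 98.1% of them. The same number of members held 82.6%, 26.5% and 71.8% of the UMIs of Dcn, a fibroblast proteoglycan, and 96.4%, 91.5% and 88.6% of those of Cd74, the invariant chain of MHC class II. Without those 10 members of each library, Dcn was at 27.5, 29.7 and 31.6 CPM and Acta2 at 4.91, 2.38 and 1.58 CPM. Ratios of Acta2, Tagln and the class II genes between libraries thus rest on a handful of barcodes.

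Members also differed among themselves in ways shared by the 3 libraries. After thinning to 1000 nuclear UMIs per cell (525, 787 and 863 members deep enough), 33 of 6736 measured genes had a variance of at least 2 times their mean in every library where they had a UMI. The median gene's smallest value was 0.975. Haemoglobin genes and Cd74 led, followed among genes of these cells by Fabp4, whose variance was 8.58, 7.30 and 6.73 times its mean.

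A small set of members held Apln RNA, a gene known to mark tip-like and growing capillary cells in the mouse. It was detected in 35 (6.45%, 4.53 to 8.85), 95 (11.9%, 9.76 to 14.4) and 94 (10.9%, 8.87 to 13.1) members of HFpEF-FoxO1-sh, HFpEF-scr and Control. After thinning the shares were 1.90%, 3.56% and 3.59%, and fibroblasts, which should lack it, showed 0.249%, 0.359% and 0.358% of cells unthinned despite being deeper (median 6325, 5617.5 and 5898.5 nuclear UMIs). Members with Apln also carried more UMIs, 6582, 6491 and 7183 nuclear UMIs against 2797.5, 2860 and 3066 in the others, and less mitochondrial RNA, 17.3%, 21.3% and 22.2% against 28.8%, 31.6% and 35.1%. The part of depth in this contrast was not tested.

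Other genes followed Apln, 115 higher and 143 lower by at least 1.5-fold of 6731, in each library in which a ratio could be formed. With 3 UMIs or fewer on both sides no ratio was formed, as for the proliferation-list gene Cenpf in HFpEF-FoxO1-sh. A 0 took a floor of 3 UMIs. Ube2c of the same list thus counted as higher in HFpEF-FoxO1-sh, although it was at 0 CPM with Apln and 2.25 CPM without. Kit was at 152, 131 and 136 CPM with Apln and 32.1, 40.4 and 36.2 CPM without, and Ift122, an intraflagellar transport gene, at 218, 199 and 243 CPM against 36, 59.8 and 52.7 CPM. Pgf, a ligand of the VEGF receptor FLT1, was at 191, 39.2 and 72.5 CPM with Apln and 15.2, 6.47 and 3.29 CPM without. Only 18, 17 and 27 members had a UMI of Pgf, and 10 members held 86.8%, 84.8% and 72.3% of its UMIs. Alpl, an alkaline phosphatase gene, went the other way at 0, 8.11 and 14.5 CPM against 55.1, 60.9 and 66.5 CPM. The genes lowest with Apln were Acta2, Tagln, Myl9 and Myh11, and MHC class II genes were also lower. As described above, RNA of Acta2, Tagln and class II genes came from few cells. These genes were chosen after the values were seen.

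The mitochondrial share divided the members along similar genes. Of 6732 genes, 86 were at least 1.5-fold higher in members at or under 20% than in the rest, and 65 were lower. These counts take each library in which a ratio could be formed. Apln was at 106, 139 and 230 CPM at or under 20% against 18.8, 44 and 27.4 CPM over it, and the DNA topoisomerase of dividing cells Top2a at 26.9, 68.9 and 107 against 0.752, 4.08 and 11.2 CPM. Top2a had a UMI in only 4, 14 and 12 members of all strata, so it is no trait of most members at or under 20%. Adamts5, a protease of matrix proteoglycans, was lower at 29.8, 37.1 and 19.1 against 80.5, 103 and 52.7 CPM. Members at or under 20% were deeper, with medians of 8191, 10112 and 10517 UMIs. Haemoglobin took 7.24%, 3.97% and 3.23% of their nuclear UMIs, more than in the members over 20% of the same library. For the genes named below, ratios between libraries are given by stratum for the leading genes and where a stratum ends a 1.5-fold call or turns its direction. Genes named by size of ratio had to be past 1.5-fold in the same direction in both strata. Agreement between strata was thus built into their choice and is not a result.

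Foxo1 (mm10, chromosome 3, 52268336 to 52353221, plus strand), the hairpin's target, was read first. Members held 144, 307 and 273 UMIs, which gave 70.8 CPM with an interval of 59.7 to 83.3, then 91.2 CPM with 81.3 to 102, then 71.9 CPM with 63.6 to 81. HFpEF-FoxO1-sh over HFpEF-scr had a ratio of 0.776 (0.632 to 0.949). The diet and virus comparison, HFpEF-scr over Control, gave 1.27 (1.07 to 1.5). HFpEF-scr stood above both other libraries, whose intervals overlap. After thinning, on 42, 64 and 52 UMIs, the ratio over HFpEF-scr was 0.984. Over all barcodes past the limits Foxo1 was at 66.4, 65.6 and 70 CPM, a ratio of 1.01 (0.980 to 1.04), and in fibroblasts the ratio was 1.08 (1.03 to 1.12). Across that sample Foxo1 was thus not lower, and it is named below by its label only. In arterial cells the ratio over HFpEF-scr was 0.890 (0.712 to 1.11), in endocardial cells 0.929 (0.700 to 1.23) and in lymphatic cells 0.932 (0.654 to 1.31), each interval including 1. In the remaining endothelial cells, on 7 against 25 UMIs, it was 0.385 (0.141 to 0.916). Foxo3 was at 18.7, 15.7 and 17.1 CPM and Foxo4 at 15.2, 16.3 and 14 CPM in members, both sparse.

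The diet and virus comparison, HFpEF-scr over Control, asks what the model does to these cells. The largest difference among the named genes was in retinoid handling: Cyp26b1, which hydroxylates retinoic acid for removal, was lower in HFpEF-scr, while Rbp7, a retinol-binding protein of fat and heart endothelium, was higher. Of lipid genes, Angptl4, an inhibitor of lipoprotein lipase, and Plin2 were higher. So were 5 of 26 immediate early genes and 4 of 18 glucocorticoid and clock genes. Of 6736 measured nuclear genes, 72 (1.07%) were at least 1.5-fold higher in HFpEF-scr and 73 (1.08%) at least 1.5-fold lower, which is 2.15% in either direction, and the median gene had a log2 ratio of -0.02. List counts below are read against these shares. With all UMIs as the denominator, which takes in the lower mitochondrial share of HFpEF-scr, 113 were higher and 40 lower and the median was 0.06.

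Cyp26b1 (mm10, chromosome 6, 84571414 to 84593908, minus strand) was at 50.2 CPM (42.9 to 58.4) in HFpEF-scr against 420 CPM (400 to 441) in Control, a ratio of 0.12 (0.101 to 0.140). It had a UMI in 10.4% against 34.7% of members, or 3.56% against 21.3% after thinning, and in 0.378% against 0.651% of fibroblasts. The library labelled HFpEF-FoxO1-sh lay at 90.4 CPM (77.8 to 104), nearer to HFpEF-scr than to Control. Members at or under 20% mitochondrial UMIs gave 53.4 CPM in HFpEF-scr against 137 CPM in Control, and the others 48.5 against 500 CPM. The size of the difference varied, while a shared direction was required of genes named by size of ratio. Arterial cells showed nearly the same ratio, 0.12 (0.0951 to 0.151), at 25.9 against 215 CPM, and endocardial cells 0.132 (0.0592 to 0.259) at 8.49 against 64.2 CPM. Other gates had ratios nearer to 1. They were 0.577 (0.373 to 0.879) in the remaining endothelial cells, 0.558 (0.396 to 0.780) in fibroblasts and 0.514 (0.187 to 1.31) in lymphatic cells. Members held a higher Cyp26b1 level than endocardial cells in each library. The remaining endothelial cells held more than members in HFpEF-FoxO1-sh and HFpEF-scr, at 116 and 163 CPM, but less in Control, at 284 CPM.

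Angptl4 was at 74.9 CPM (65.9 to 84.7) in HFpEF-scr against 27.1 CPM (22.1 to 32.9) in Control, a ratio of 2.76 (2.19 to 3.51), with 3.06 and 2.67 at or under 20% and over 20% mitochondrial UMIs. In the library labelled HFpEF-FoxO1-sh it had 73.2 CPM, a ratio of 0.978 (0.793 to 1.20) over HFpEF-scr. Other cells showed it as well: Angptl4 was at 77.6 against 26.1 CPM in fibroblasts, where 29.5% against 12.4% of cells had a UMI, and 38.5 against 10.4 CPM in arterial cells. Rbp7 was at 732 CPM (704 to 762) in HFpEF-scr against 357 CPM (338 to 376) in Control, a ratio of 2.05 (1.92 to 2.19), against 1.31 (1.25 to 1.37) in arterial cells, where its level was higher at 1476 and 1128 CPM. A difference between the gates was not tested.

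**Figure D3:**
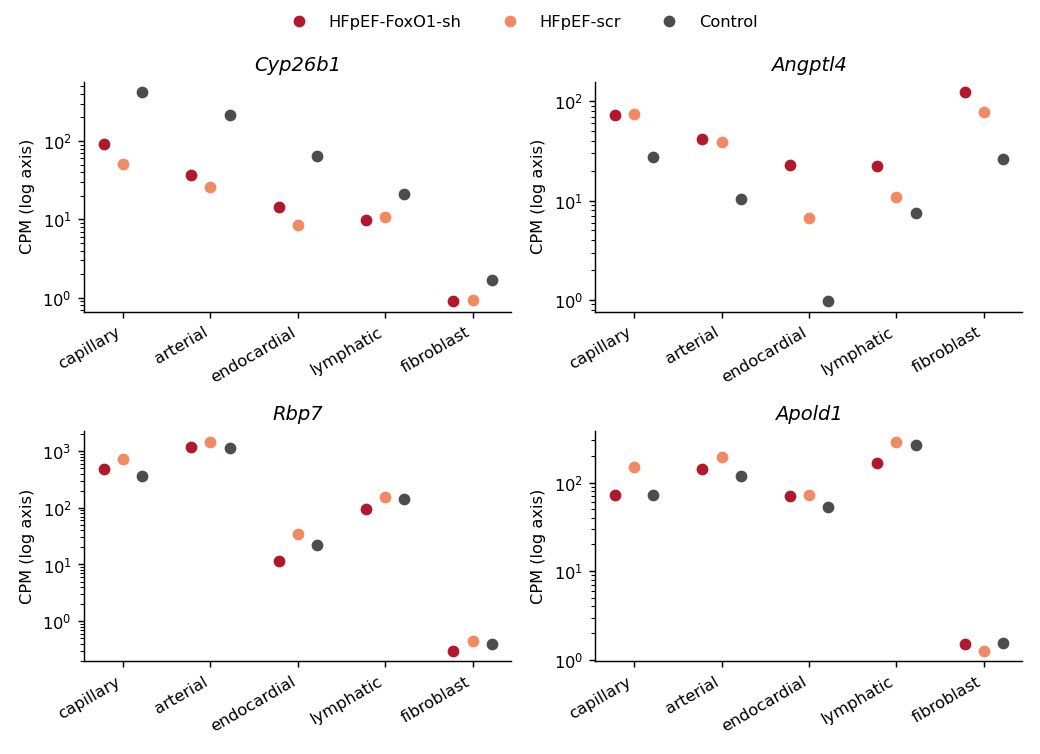
CPM (log axis) of 4 genes in 5 gated populations, 1 point per library in the order HFpEF-FoxO1-sh, HFpEF-scr and Control; open triangles would mark a library with 0 UMIs. Cyp26b1 is highest in Control in every gate shown, with 420 CPM in capillary cells, and Angptl4 is lowest in Control in every gate shown.

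The capillary and fatty acid list had 25 of 35 members measured, of which 3 were at least 1.5-fold higher in HFpEF-scr and 0 lower, with a median log2 ratio of 0.19. They were Angptl4, Rbp7 and Plin2, the lipid droplet coat, which was at 121 CPM in HFpEF-scr against 72.7 CPM in Control (1.66, 1.42 to 1.94), with 1.44 at or under 20% mitochondrial UMIs. Within 1.5-fold lay Cd36, with 7887 against 5634 CPM (1.40, 1.37 to 1.43), and Fabp4, at 41328 against 32992 CPM (1.25, 1.24 to 1.26). The mitochondrial carrier gene Ucp2 was at 192 against 131 CPM (1.47, 1.30 to 1.65). Lpl, the lipase itself, lay at 753 against 677 CPM (1.11, 1.05 to 1.18). Cd36 and Lpl were chosen after their values were seen.

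Immediate early genes, transcribed within minutes of a stimulus, were the list with the highest median, 0.32, and 24 of 26 measured members had a ratio above 1. At least 1.5-fold higher were 5 of them and 0 were lower. Nr4a1, an orphan nuclear receptor gene, was at 44.9 CPM in HFpEF-scr against 20.3 CPM in Control (2.21, 1.67 to 2.95). Apold1, an endothelial early response gene, was at 151 against 71.4 CPM (2.12, 1.82 to 2.46). The zinc finger factor gene Egr1 was at 240 against 144 CPM (1.66, 1.49 to 1.86) and the phosphatase gene Dusp1 at 549 against 362 CPM (1.52, 1.41 to 1.63). Dusp1 was 1.33-fold at or under 20% mitochondrial UMIs. Gadd45b, named here because it completes the count, was at 55.3 against 36.6 CPM, and 1.41-fold over 20%. The flow-responsive factors Klf2 (721 against 546 CPM) and Klf4 (324 against 242 CPM) stayed within 1.5-fold, as did Fos at 291 against 218 CPM, all 3 named after their values were seen.

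Glucocorticoid and circadian genes had 4 of 18 measured members higher and 0 lower, with a median of 0.12. The repressors of the clock Per3 and Per1 were at 26.7 against 12.6 CPM (2.11, 1.47 to 3.07) and at 26.7 against 13.4 CPM (1.99, 1.40 to 2.86). Ddit4, a brake on mTOR that glucocorticoids induce, was at 52.9 against 28.7 CPM, and the clock output factor gene Dbp at 32.7 against 18.2 CPM. Arntl, the activator of the clock, had 16.6 against 22.1 CPM (0.752, 0.526 to 1.07).

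Matrix genes were split. Of 23 measured members of the basement membrane list, 2 were higher, Col15a1 (189 against 117 CPM; 1.61, 1.42 to 1.82), a collagen of capillary basement membranes, and Nid2 (74.3 against 47.4 CPM), a linker of laminin and collagen. The lower ones were also 2, Lamb2 (82 against 124 CPM), a laminin chain, and Mgp (31.8 against 68.8 CPM), an inhibitor of calcification of which 10 members held 43% and 60.2% of UMIs. Col15a1 was 1.11-fold at or under 20% mitochondrial UMIs and 1.76-fold over it, and Nid2 1.10-fold and 1.75-fold. Lamb2 had ratios of 0.764 and 0.679 in these strata, each within 1.5-fold, and Mgp 0.168 and 0.752. The TGF-beta list had 1 of 26 higher, Fn1 (31.2 against 19.8 CPM), and 4 lower: Acta2 and Tagln, from the few cells described above, Bmp6 (93 against 147 CPM), a ligand that liver endothelium uses to signal iron, and Bambi (22.6 against 35 CPM), a decoy receptor. At or under 20% mitochondrial UMIs the direction turned for Bmp6 (1.03), Acta2 (18.4) and Tagln (1.44), and Fn1 was 1.22-fold. Bambi had a ratio of 0.717 over 20%.

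Defence and stress lists differed little. Interferon genes had 1 of 36 higher and 1 lower, near the share of all genes, with a median of -0.10: Ifi27l2a at 89.7 against 52.9 CPM and the GTPase gene Iigp1 at 121 against 201 CPM. Ifi27l2a was 1.03-fold over 20% mitochondrial UMIs. In the MHC list 0 of 16 passed 1.5-fold, with Tap1, the peptide transporter of class I, at 52 against 76.7 CPM. Heat shock genes had 0 of 19 past 1.5-fold but 18 of 19 below a ratio of 1 and a median of -0.17, with the small heat shock protein gene Hspb1 at 1338 against 1669 CPM. In the lists of nitric oxide genes (21 measured), FoxO-regulated genes (25), VEGF, angiopoietin and apelin genes (36), unfolded protein genes (20), nuclear oxidative phosphorylation genes (43), junction genes (24), cholesterol genes (14) and antioxidant genes (22), 0 members passed 1.5-fold, and list medians lay between -0.06 and 0.02. The glycolysis and hypoxia list had 1 of 24 higher, Ddit4 again, with a median of -0.01. In the proliferation list 1 of 15 was higher, Birc5, with a median of -0.08, and its UMIs lay in 10 members or fewer of each library, with ratios of 1.20 at or under 20% mitochondrial UMIs and 1.34 over it. The adhesion list had 1 of 23 higher, the chemokine gene Ccl2, with a median of 0.08. MHC genes had a median of -0.17, and basement membrane and TGF-beta genes medians of 0.09 and 0.02. Nos3, the endothelial nitric oxide synthase, was at 136 against 123 CPM (1.11, 0.972 to 1.26), and was chosen after its values were seen. The 13 protein-coding genes of the mitochondrial genome summed to 260118, 261939 and 301063 per 1000000 UMIs of all kinds in HFpEF-FoxO1-sh, HFpEF-scr and Control.

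Among the remaining named genes, S100a6, a calcium-binding protein gene, was higher at 411 CPM in HFpEF-scr against 217 CPM in Control (1.89, 1.73 to 2.06). Olfr1396, annotated as an olfactory receptor gene, was at 57.6 against 19.2 CPM (3.0, 2.28 to 3.98). On the lower side, Apoe, a carrier of lipids made by many cell types, was at 408 against 768 CPM (0.531, 0.498 to 0.567), and Oxct1, which breaks down ketone bodies, at 25 against 44 CPM (0.567, 0.431 to 0.742). The capillary water channel Aqp1, named after its values were seen, was at 1228 against 1985 CPM (0.619, 0.595 to 0.643), but 0.855 in members at or under 20% mitochondrial UMIs.

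**Figure D4:**
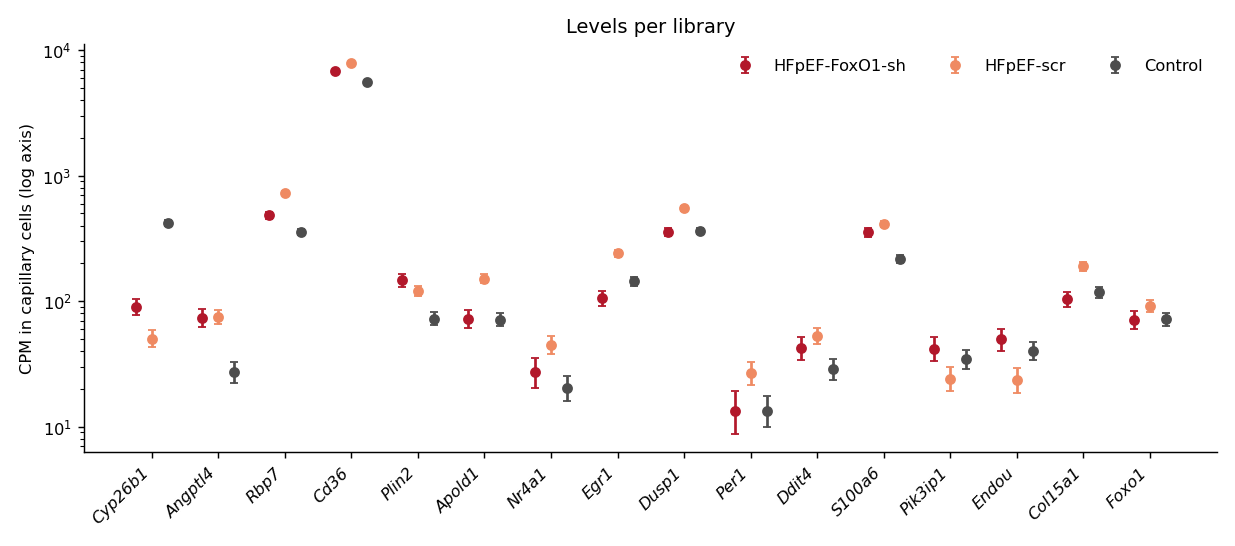
CPM in capillary cells (log axis) of 16 genes, with exact 95% Poisson intervals for counting error, in the order HFpEF-FoxO1-sh, HFpEF-scr and Control. Cyp26b1 shows the widest gap, with Control at 420 CPM; Angptl4 is alike in both diet libraries at 73.2 and 74.9 CPM, and the intervals of Apold1 and Per1 overlap between the library labelled HFpEF-FoxO1-sh and Control.

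The hairpin comparison sets the library labelled HFpEF-FoxO1-sh against HFpEF-scr. It keeps diet and virus and asks what a hairpin against FoxO1 adds. In the library labelled HFpEF-FoxO1-sh, the early response genes Egr1, Apold1, Nr4a1 and Dusp1 were lower. Of 18 glucocorticoid and clock genes, Per1 was lower and 3 were higher, Tef, Arntl and Mt1. The matrix genes Col15a1, Nid2 and Adamts9 were lower and Mgp was higher. Several of these calls, as for Nid2 and Adamts9, did not hold in both mitochondrial strata, as given below. Angptl4 was within 1.5-fold of HFpEF-scr. The FoxO-regulated gene Pik3ip1 was higher, the only 1 of 25 measured FoxO-list genes past 1.5-fold, which is near the share of all genes. Of 6736 genes, 118 (1.75%) were at least 1.5-fold higher and 139 (2.06%) lower, which is 3.82% in either direction, with a median log2 ratio of -0.01. Set directly against Control, where diet and virus both differ, HFpEF-FoxO1-sh had 70 genes (1.04%) higher and 97 (1.44%) lower, or 2.48% in either direction. HFpEF-scr is also the numerator of the diet and virus comparison. A library value of HFpEF-scr that is high or low by itself thus moves both comparisons in opposite directions, and the values of Control are given beside them.

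Immediate early genes had 4 of 26 measured members at least 1.5-fold lower and 0 higher, a median of -0.22, and 23 of 26 below a ratio of 1. Egr1 was at 105 CPM in the library labelled HFpEF-FoxO1-sh against 240 CPM in HFpEF-scr, a ratio of 0.438 (0.375 to 0.510), with 0.507 and 0.394 in the mitochondrial strata, while Control had 144 CPM. Apold1 was at 71.8 against 151 CPM (0.474, 0.392 to 0.571), and Control had 71.4 CPM. Nr4a1 was at 27 against 44.9 CPM (0.602, 0.434 to 0.825) and Dusp1 at 353 against 549 CPM (0.644, 0.590 to 0.702). Control had 20.3 and 362 CPM of these genes. In the gate of lymphatic cells Egr1 was also lower, at 154 against 252 CPM (0.609, 0.449 to 0.816). It was not lower in the other gates, with 1137 against 900 CPM in fibroblasts, 499 against 250 CPM in endocardial cells, 392 against 357 CPM in arterial cells and 693 against 521 CPM in the remaining endothelial cells. Apold1 in arterial cells was at 142 against 194 CPM (0.733, 0.632 to 0.848).

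The FoxO list had 25 of 35 members measured, 1 of them higher and 0 lower, with a median of 0.09. That count is near the 3.82% of all genes past 1.5-fold in either direction. Pik3ip1, an inhibitor of PI3-kinase that FoxO factors induce, was at 41.8 CPM in the library labelled HFpEF-FoxO1-sh against 24.1 CPM in HFpEF-scr (1.74, 1.27 to 2.38), and Control had 34.5 CPM. It was 1.32-fold at or under 20% mitochondrial UMIs and 1.98-fold over it. Within 1.5-fold, Ccnd1, a cyclin that FoxO factors repress, was at 427 against 617 CPM (0.691, 0.638 to 0.748), the mitophagy receptor gene Bnip3 at 40.3 against 59.1 CPM (0.682, 0.520 to 0.886) and the deacetylase gene Sirt1 at 34.9 against 24.4 CPM (1.43, 1.03 to 1.99). Txnip, which restrains glucose uptake and thioredoxin, was at 1526 against 1074 CPM (1.42, 1.35 to 1.49), and Control had 1130 CPM.

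Growth-related genes came from few members. Apln was at 49.1 CPM in the library labelled HFpEF-FoxO1-sh against 76.7 CPM in HFpEF-scr (0.641, 0.504 to 0.811) and Esm1, another tip-cell gene, at 24.6 against 38 CPM (0.646, 0.456 to 0.903). At or under 20% mitochondrial UMIs Apln had a ratio of 0.766, within 1.5-fold, and Esm1 turned direction at 1.17. Pgf was higher at 37.3 against 13.7 CPM (2.73, 1.87 to 4.03), from 18 against 17 members. These are 1 higher and 2 lower of 36 measured genes of the VEGF, angiopoietin and apelin list, whose median was -0.04.

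In the proliferation list 8 of 15 measured members were lower and 0 higher, with a median of -0.61. The defining genes of dividing cells were carried by hardly any cell: Top2a had a UMI in 4 members of the library labelled HFpEF-FoxO1-sh against 14 in HFpEF-scr and 12 in Control, and Mki67 in 2 against 15 and 12. After thinning, members with at least 5 UMIs of the list were, in the library labelled HFpEF-FoxO1-sh, 11 of 525 (2.10%, 1.05 to 3.72), against 15 of 787 (1.91%, 1.07 to 3.12) in HFpEF-scr and 17 of 863 (1.97%, 1.15 to 3.14) in Control, intervals that overlap. The list median was 0.10 after thinning, against -0.61 without it. The minimum of 150 UMIs was applied again after thinning, so these medians cover different genes and cannot be compared gene for gene.

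Matrix and transition genes again had members on both sides. In the basement membrane list 3 of 23 were lower, with a median of -0.19, and 1 was higher. Col15a1 was at 104 against 189 CPM (0.551, 0.470 to 0.645), Nid2 at 45.2 against 74.3 CPM and the matrix protease gene Adamts9 at 97.3 against 156 CPM (0.625, 0.528 to 0.737). Control had 117, 47.4 and 105 CPM of these genes. Nid2 had a ratio of 0.853 at or under 20% mitochondrial UMIs, and Adamts9 0.713 over it. Mgp was higher at 73.7 against 31.8 CPM, with 66% and 43% of its UMIs in 10 members. Of 26 TGF-beta genes, Acta2 and Tagln (from few cells) and Bmp6 (140 against 93 CPM; 1.5, 1.27 to 1.77) were higher, and 1 was lower, Snai2, a transcription factor that drives loss of endothelial identity, at 28 against 46.9 CPM (0.597, 0.433 to 0.813). Over 20% mitochondrial UMIs Acta2 (0.441) and Tagln (0.483) turned direction, and at or under it Bmp6 was 1.36-fold. Snai2 was at 44.3 CPM in Control, so it was the library labelled HFpEF-FoxO1-sh that stood apart.

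In the capillary and fatty acid list 2 of 25 were lower and 0 higher, Rbp7 at 484 against 732 CPM (0.661, 0.613 to 0.712) and Apln, with a median of -0.03. Rbp7 was 0.924 at or under 20% mitochondrial UMIs and 0.593 over it. Plin2 was at 146 against 121 CPM (1.21, 1.04 to 1.41) and Cd36 at 6799 against 7887 CPM (0.862, 0.844 to 0.880), so both stayed above Control's 72.7 and 5634 CPM. Cyp26b1 was higher, 90.4 against 50.2 CPM (1.80, 1.45 to 2.23), but 1.17-fold at or under 20% mitochondrial UMIs.

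In the MHC list 4 of 16 members were higher and 0 lower, with a median of 0.28. All 4, H2-Ab1, Cd74, H2-Eb1 and H2-Aa, belong to class II, which antigen-presenting cells carry, and 10 members held 85.2% to 96.4% of their UMIs. Their ratios ran from 3.55 for Cd74 to 6.58 for H2-Ab1 in members at or under 20% mitochondrial UMIs, and from 0.228 for H2-Aa to 0.394 for Cd74 in the others. Of class I, H2-Q7 was at 319 against 230 CPM (1.39, 1.25 to 1.54), spread over 54% against 50.1% of members.

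The clock list had 3 of 18 higher and 1 lower, with a median of -0.03. Per1 was at 13.3 CPM in the library labelled HFpEF-FoxO1-sh against 26.7 CPM in HFpEF-scr (0.496, 0.310 to 0.770). Tef, a clock output factor gene, was at 34.4 against 20.5 CPM (1.68, 1.19 to 2.37), Arntl at 25.1 against 16.6 CPM (1.51, 1.01 to 2.24; 1.48 over 20% mitochondrial UMIs) and the metallothionein gene Mt1 at 39.8 against 16.6 CPM, with 79% of its UMIs in 10 members and a ratio of 0.929 over 20%. Of the other lists, the cholesterol list had 1 of 14 lower, the sterol carrier Stard4 (43.7 against 66 CPM; 0.731 at or under 20%), the antioxidant list 1 of 22 higher, Mt1, and the adhesion list 1 of 23 lower, Ccl2, a chemokine found in 10 against 16 members. Ccl2 was also the 1 higher member of that list in HFpEF-scr over Control, at 43.4 against 16.9 CPM, where 16 against 14 members held it. Over 20% mitochondrial UMIs Ccl2 turned direction in both comparisons, at 1.33 for HFpEF-FoxO1-sh over HFpEF-scr and 0.411 for HFpEF-scr over Control. Nitric oxide, interferon, heat shock, unfolded protein, glycolysis, oxidative phosphorylation and junction lists had 0 members past 1.5-fold, with medians between -0.05 and 0.08. Nuclear oxidative phosphorylation genes had 36 of 43 ratios above 1, led by the complex I gene Ndufv1 with a log2 ratio of 0.47. Ednrb, the endothelin receptor of endothelial cells, was the widest of the nitric oxide list at 172 against 231 CPM (0.746, 0.656 to 0.848), and Control had 174 CPM.

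Among the genes named by size of ratio, Endou, an endoribonuclease gene, was higher at 49.6 against 23.5 CPM (2.11, 1.56 to 2.88), with 40.3 CPM in Control. Slc1a1, a glutamate and cysteine transporter gene, was at 37.8 against 18.1 CPM (2.09, 1.47 to 2.97), and Oxct1 at 49.1 against 25 CPM (1.97, 1.46 to 2.66). On the lower side, Pik3r3, a regulatory subunit of PI3-kinase, was at 19.2 against 38.9 CPM (0.492, 0.335 to 0.709), with 26.6 CPM in Control, and Abcd3, a peroxisomal fatty acid transporter, at 15.7 against 32.1 CPM (0.490, 0.320 to 0.733).

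**Figure D5:**
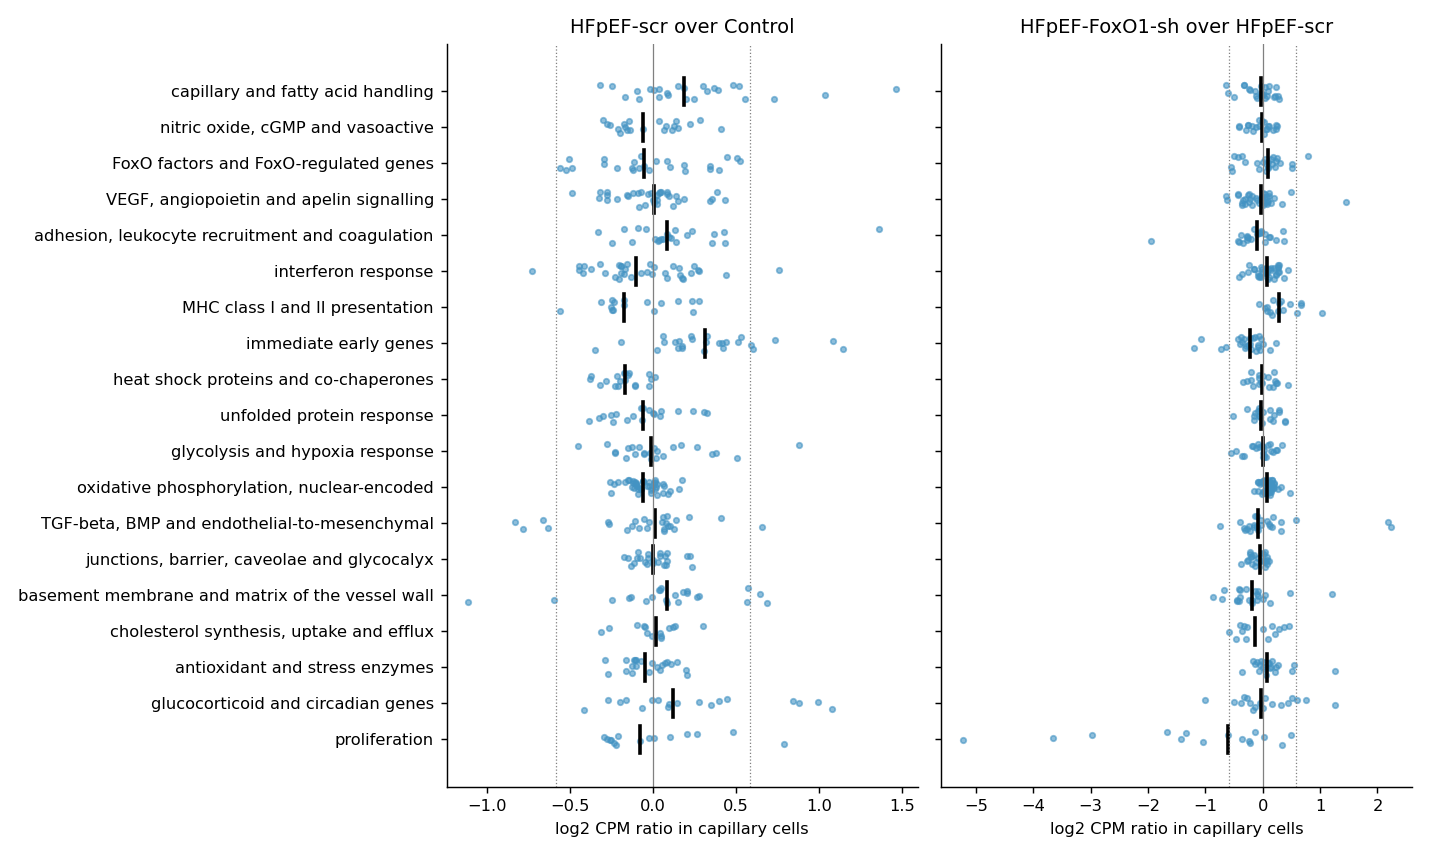
Each point is 1 measured gene of a list, at its log2 CPM ratio in capillary cells for HFpEF-scr over Control (left) and HFpEF-FoxO1-sh over HFpEF-scr (right, wider axis); black bars are list medians, the solid line is 0 and dotted lines are 1.5-fold. Immediate early genes lie to the right in the left panel (median 0.32) and to the left in the right panel (median -0.22), panels that share HFpEF-scr, and the outlying points at the foot are proliferation genes carried by few cells.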

How the data were processed

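The authors deposited raw UMI counts for each gene and barcode. Per the submitters' processing notes and the file headers, Cell Ranger 6.1.2 and the build mm10 were used. The annotation release is not given in the sources used here, and the lowest total per barcode was 500 UMIs. Symbols in the files were used, and gene positions come from GENCODE vM21 on that build. UMIs were summed over members, genes of the same symbol together, and divided by nuclear-gene UMIs (2034823, 3365698 and 3796345 in HFpEF-FoxO1-sh, HFpEF-scr and Control) to give CPM. A gene was measured with at least 150 UMIs over the libraries, and 6736 nuclear genes were. A library at 0 takes a floor of 3 UMIs, and no ratio is formed from counts that are both at or under 3. Counts over the libraries pass over a library without a ratio. Intervals are exact Poisson, Clopper-Pearson and conditional binomial. The tools were scanpy 1.11.5 (Scrublet, expected rate 12%, marking 3.58%, 3.61% and 3.22% of barcodes), pandas 2.3.3 and scipy 1.17.1 under Python 3.11.15, and matplotlib 3.10.9. The scripts were tested on simulated data. Alternatives changed the mitochondrial limit, gate sums, depth, scaling, gene minimum, fold and pseudocount.

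Members, gate and 20 gene lists (595 of 598 genes found) were chosen with earlier results of these data known. Named genes are, per comparison, the 12 highest and 12 lowest ratios past 1.5-fold in both mitochondrial strata with a UMI in at least 10% of members of the higher library, up to 4 members per list, the capillary markers and Foxo genes. Haemoglobin genes, Gm and Rik models, Xist and genes of the rule were left out.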

Additional observations from a re-analysis of the deposited data

How the results depend on the processing

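No paired analysis was possible because each group is 1 library, and for the same reason no replicate could be left out. The share of barcodes in HFpEF-FoxO1-sh, HFpEF-scr and Control was 0.569%, 0.812% and 0.649% with a mitochondrial limit of 20%, 2.29%, 3.30% and 3.99% with a capillary sum of at least 5, 3.52%, 5.02% and 5.64% with other sums allowed to be 1, and 2.28%, 3.22% and 3.74% without members holding pericyte UMIs, an alternative added after seeing the data, as was leaving out members with over 1% haemoglobin. Genes past 1.5-fold in HFpEF-scr over Control numbered 145, but 66 after thinning, 228 by the mean of per-cell CPM, 472 with a minimum of 60 UMIs, 2069 with no minimum other than 1 UMI, and 21 at 2-fold. In HFpEF-FoxO1-sh over HFpEF-scr they numbered 257, but 104 after thinning and 379 by the mean of per-cell CPM. They were 765 at 60 UMIs, 2279 with no minimum, and 37 at 2-fold. Lower minimums admit genes with few UMIs. After thinning, the minimum of 150 UMIs was applied again, so fewer than 6736 genes were measured and those counts have a smaller base. The Foxo1 ratio over HFpEF-scr was 0.984 after thinning, and lay between 0.710 and 0.940 under the other alternatives.

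Log2 ratios past 1.5-fold, or list medians of at least 0.10 in size, that changed sign follow, and the cause was not tested. Sign changes of ratios within 1.5-fold are not listed. S100a6 in HFpEF-FoxO1-sh over HFpEF-scr, for example, had a ratio of 0.859, but 1.30 at or under 20% mitochondrial UMIs. In HFpEF-scr over Control, at or under 20% mitochondrial UMIs, Slc1a1 was 0.27, Ssu2 -0.0058, Acta2 4.2, Tagln 0.53 and Bmp6 0.037. Over 20%, Ccl2 was -1.28, and without pericyte UMIs Acta2 was 0.91. In HFpEF-FoxO1-sh over HFpEF-scr, over 20%, Ccl2 was 0.41, Cd74 -1.34, H2-Ab1 -1.66, H2-Eb1 -1.63, H2-Aa -2.14, Acta2 -1.18, Tagln -1.05 and Mt1 -0.11. At or under 20% Esm1 was 0.22. With a capillary sum of at least 5, Cd74 and H2-Aa were both -0.16. Apoe was -0.018 without marked doublets and -0.032 without pericyte UMIs, where Tagln was -0.43. Mt1 was -0.053 with other sums allowed to be 1. After thinning, Myo1d was -0.037 and the proliferation median, over the fewer genes that still met the minimum, 0.10. Of 4284 recomputed ratios of named genes, 3958 kept their side of 1.5-fold and 303 moved across it without a change of sign from a called ratio. Many could hardly move. A gene minimum of 60 UMIs leaves each ratio as it is, and at least 1000 UMIs per barcode kept 541, 796 and 865 members. Genes named by size also had to pass in both mitochondrial strata, which are among the alternatives. The tally is thus no measure of robustness. The 23 gene ratios listed above were past 1.5-fold and changed sign.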
